A study of Mus musculus with 6 samples.

Results

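The genes described here make, sense and move cholesterol and fatty acids. They are 34 named genes: enzymes of the mevalonate, squalene and sterol steps, the sterol sensors and SREBP transcription factors, a sterol carrier and exporter, and the enzymes that make, elongate and desaturate fatty acids. Every probe set that the platform annotation assigns to exactly 1 gene, that gene being one of the 34, was taken, which gave 77 probe sets for 33 genes of the 18194 genes measured. Acat2, which encodes a thiolase that starts the pathway, had no probe set naming it alone and was not analysed here. The cells were 10T1/2, a line of mouse embryonic fibroblasts, fed DMEM with 10% fetal bovine serum and taken for RNA when 80% confluent. There are 3 samples, called 1, 4 and 5 in their labels, and each was hybridised to 1 Affymetrix MOE430A and 1 MOE430B array, which makes 6 arrays and 1 group with no treatment or contrast. Nothing in the labels tells whether these came from different dishes, which leaves their spread possibly technical, and no test between conditions is possible. In such bulk RNA, fewer cells that express a gene and less of its RNA per cell cannot be told apart. The stated purpose was to have a fibroblast profile whose genes can be subtracted from profiles of stem cells. The labels add that the best 3 samples were to be chosen, without saying by what measure or from how many.

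Cholesterol is built from acetyl-CoA through mevalonate, isoprenoid diphosphates and squalene, which is closed into lanosterol and trimmed to cholesterol in the endoplasmic reticulum. When sterols in that membrane are scarce, SCAP escorts the SREBP precursors to the Golgi, where they are cut, and the released factors switch on the genes of sterol and fatty acid synthesis. INSIG proteins hold SCAP back when sterols are plentiful. SREBP-2, from Srebf2, acts mainly on sterol genes and SREBP-1c, from Srebf1, mainly on fatty acid genes, while LXR receptors respond to oxysterols by raising Srebf1 and the exporter Abca1.

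Signals are MAS5 intensities on a linear scale, and 1 probe set's level is not set against another's. A probe set was called detected when it lay above the array's background limit, the 95th percentile of the probe sets of genes restricted to distant tissues, on 3 of 3 arrays. The limit was 994, 967 and 769 in samples 1, 4 and 5 on MOE430A and 3976, 2803 and 2930.3 on MOE430B, so detection was much harder on the second design. Of 18 fibroblast markers on MOE430A 16 were detected, with Col1a1 at 31161, 15904 and 7621 in samples 1, 4 and 5. Of the other cell types checked on MOE430A, 0 of 11 adipocyte, 0 of 13 hepatocyte, 0 of 12 endothelial and 0 of 12 skeletal muscle markers were detected. Among 12 macrophage markers 2 were detected, Csf1r and Cd14, and among 12 epithelial markers 1, Elf3, which are named here after their values were seen. On MOE430B the epithelial adhesion gene Epcam was detected, at 31382, 139544 and 29693 in samples 1, 4 and 5, although its MOE430A probe sets were not. The ratio of 3' to 5' probe sets of Gapdh was 24.7, 15.0 and 10.6 in samples 1, 4 and 5 on MOE430A, and that of Actb 17.5, 9.57 and 8.68, so that sample 1 had the highest ratio for both genes. As a yardstick of array error, the 100 probe sets that both designs carry, controls left out, were compared for the same RNA. A sample's deviation, its log2 signal minus the mean log2 signal of the other 2 samples, differed between the designs with an SD of 0.51 for sample 1, 0.45 for sample 4 and 0.44 for sample 5.

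Almost all of these genes were detected. On either design 30 of 33 genes (90.9%) were, against 30.7% of all 18194 genes. On MOE430A 28 of 32 were detected, against 36% of all genes there, and on MOE430B 4 of 12, against 15%. Genes with more probe sets are detected more easily. The 9 members with a single probe set were all detected, where 17.9% of all genes with a single probe set were. When most of a gene's probe sets had to be detected, 14 of 33 members were, against 2647 of 18194 genes. The part of probe set number in the members' share was not tested. Of the 64 member probe sets on MOE430A 36 were detected and of the 13 on MOE430B 4, against 29% and 10.8% of all probe sets naming 1 gene. The 3 genes not detected by this rule were Fdps, Msmo1 and Sc5d. Each of these was above the limit in samples 4 and 5 and below it in sample 1.

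**Figure D1:**
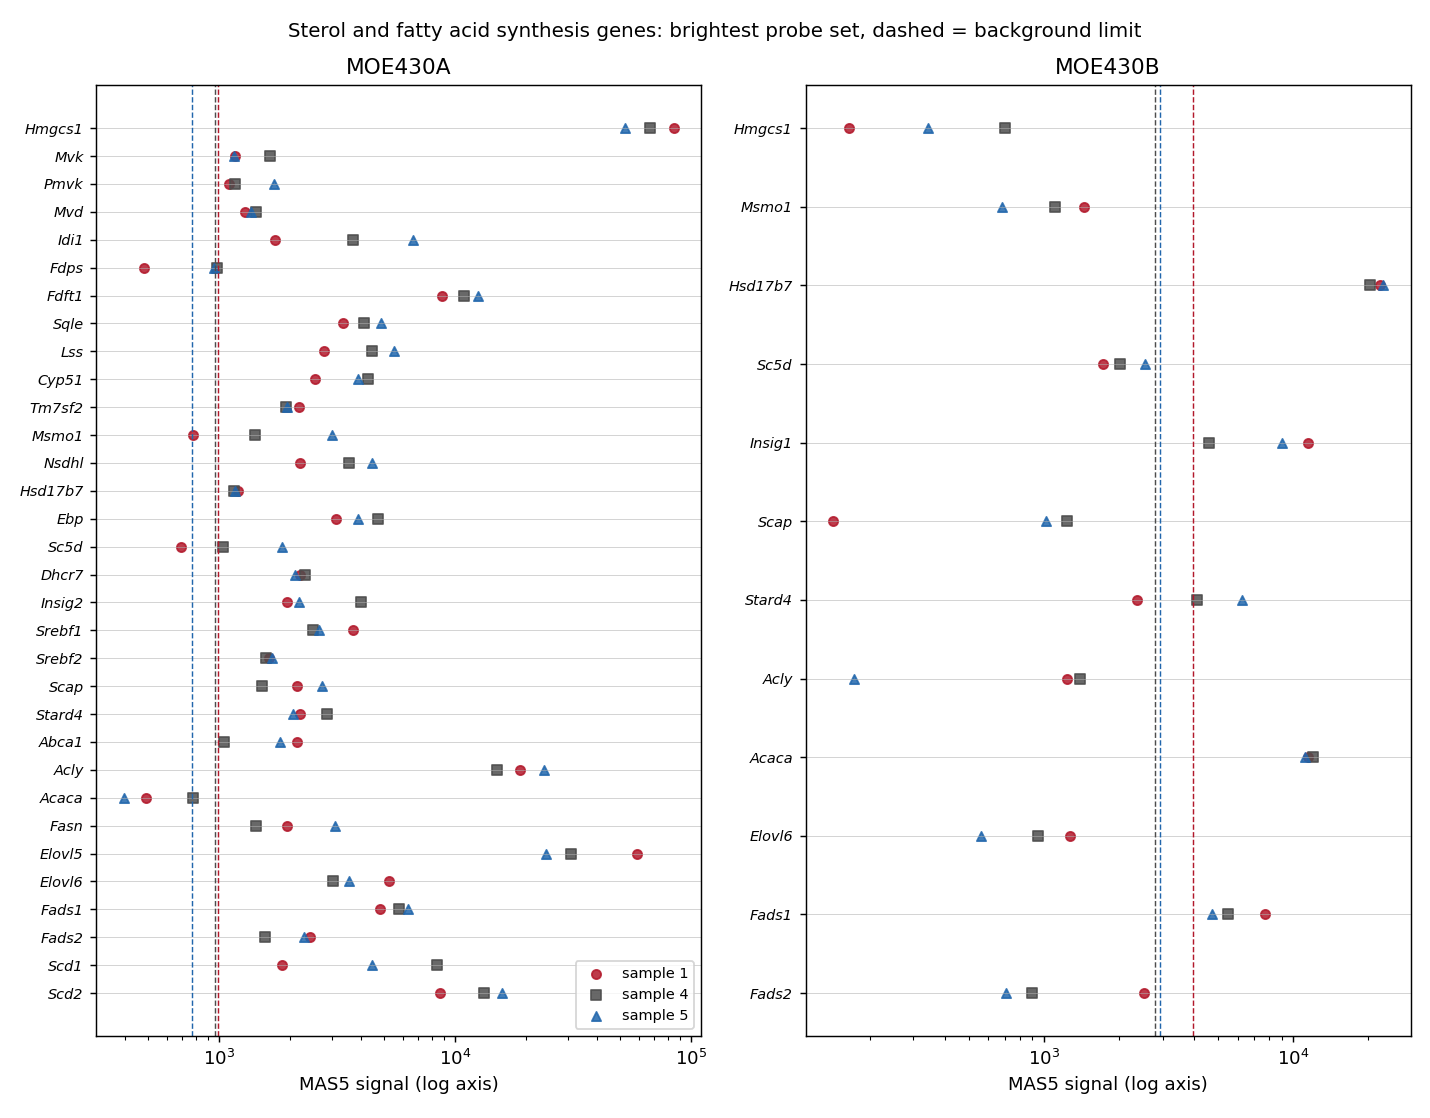
MAS5 signal (log axis) of each gene's brightest probe set in samples 1 (red circles), 4 (grey squares) and 5 (blue triangles) on MOE430A (left) and MOE430B (right), with the background limits of the 3 arrays as dashed lines in the same colours. On MOE430A 28 of 32 genes have a probe set above the limit on 3 of 3 arrays, and on MOE430B 4 of 12 do.

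The proximal promoters of 5 members are shown as examples with and without the motifs of SREBP-regulated genes. They were picked after the values were seen and do not represent the members' patterns across samples, described below: by their brightest probe sets on MOE430A Idi1 and Msmo1 read lowest in sample 1, and Hmgcs1, Elovl6 and Abca1 highest. The windows run from 250 bases before to 50 after the RefSeq start (GRCm38.p6), 5′ to 3′ on the gene's strand. They lie at chr13:119690101-119690400, plus strand (Hmgcs1), chr13:8885356-8885655, plus strand (Idi1), chr8:64733529-64733828, minus strand (Msmo1), chr3:129532136-129532435, plus strand (Elovl6) and chr4:53159846-53160145, minus strand (Abca1). Capitals mark the sterol regulatory element TCACNCCAC, bound by SREBPs, and the CCAAT box CCAAT, bound by NF-Y, on either strand, so that a CCAAT box on the other strand reads ATTGG. No marked bases of the motifs overlap.
Hmgcs1: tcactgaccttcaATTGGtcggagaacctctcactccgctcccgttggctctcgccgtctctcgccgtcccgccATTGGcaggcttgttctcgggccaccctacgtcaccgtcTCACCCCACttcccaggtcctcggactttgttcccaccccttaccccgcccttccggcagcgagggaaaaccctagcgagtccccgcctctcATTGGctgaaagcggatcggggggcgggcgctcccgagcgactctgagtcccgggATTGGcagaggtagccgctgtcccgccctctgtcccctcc
Idi1: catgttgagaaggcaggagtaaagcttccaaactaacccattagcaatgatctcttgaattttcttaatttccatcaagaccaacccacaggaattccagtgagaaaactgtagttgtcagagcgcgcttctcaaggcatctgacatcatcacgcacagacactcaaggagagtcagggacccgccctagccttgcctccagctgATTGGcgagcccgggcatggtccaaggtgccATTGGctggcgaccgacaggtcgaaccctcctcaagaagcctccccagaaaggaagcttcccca
Msmo1: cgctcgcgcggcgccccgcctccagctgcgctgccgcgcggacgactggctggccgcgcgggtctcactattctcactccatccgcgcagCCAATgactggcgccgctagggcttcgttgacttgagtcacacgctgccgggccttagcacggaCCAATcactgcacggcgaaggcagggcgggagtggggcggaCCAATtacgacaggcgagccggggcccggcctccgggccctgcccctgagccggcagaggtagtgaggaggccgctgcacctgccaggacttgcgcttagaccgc
Elovl6: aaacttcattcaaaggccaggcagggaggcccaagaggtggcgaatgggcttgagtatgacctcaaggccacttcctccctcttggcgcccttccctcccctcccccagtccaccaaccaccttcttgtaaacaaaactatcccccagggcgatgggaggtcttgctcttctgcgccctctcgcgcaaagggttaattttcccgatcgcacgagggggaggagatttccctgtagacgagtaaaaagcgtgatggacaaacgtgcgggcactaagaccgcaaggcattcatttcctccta
Abca1: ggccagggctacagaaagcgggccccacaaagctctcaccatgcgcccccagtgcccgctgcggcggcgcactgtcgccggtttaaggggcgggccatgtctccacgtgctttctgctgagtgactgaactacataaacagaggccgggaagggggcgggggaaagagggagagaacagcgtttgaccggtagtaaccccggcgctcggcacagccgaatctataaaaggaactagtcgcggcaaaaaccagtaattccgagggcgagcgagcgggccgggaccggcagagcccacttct
The Hmgcs1 window holds 1 sterol regulatory element and 4 CCAAT boxes, Idi1 holds 2 CCAAT boxes and Msmo1 3, and those of Elovl6 and Abca1 hold neither motif. Members that read highest in sample 1 by a brightest probe set include genes with and without the CCAAT box. Elovl6, Abca1 and Fads2 are among 6 of 27 members without it. Hmgcs1, Elovl5, Srebf1, Insig1, Tm7sf2 and Hsd17b7 have it. Windows were at hand for 27 of the 34 members, any of a gene's starts counting. The CCAAT box was present in 21 of these 27 (77.8%), against 41.1% of 27025 genes, and the sterol regulatory element in 1 of 27 (3.7%), against 1.44%. The GC box GGGCGG was in 22 of 27 (81.5%), against 38.2%, and the E-box CACGTG in 7 of 27 (25.9%), against 8.09%. The member shares were the higher ones for all 4 motifs, a description with no test that leaves base composition out of account. A match is not shown to be a working site, and other forms of the element were not searched.

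In the first steps, from HMG-CoA to the isoprenoid diphosphates, the gene whose brightest probe set spread most was Idi1, the isomerase that makes dimethylallyl diphosphate. Its probe set 1451122_at read 1731, 3692 and 6619 in samples 1, 4 and 5 and 1423804_a_at 1062, 1912 and 4390.0. Both gave sample 1 the lowest and sample 5 the highest signal, 3.82-fold and 4.13-fold apart. Hmgcs1, the synthase that makes HMG-CoA, had 4 probe sets on MOE430A that disagreed. The brightest, 1433443_a_at, read 84661, 66783 and 52357 in samples 1, 4 and 5, whereas 1433444_at read 596, 1701 and 3124, 1433445_x_at 779, 1729 and 3236 and 1433446_at 424, 922 and 1008. The brightest thus put sample 1 highest and the other 3 put it lowest, and which of them follows the Hmgcs1 transcript was not tested. Fdps, whose product joins isoprenoid units into farnesyl diphosphate, read 482, 980.2 and 953, lowest in sample 1 and close together in the other 2.

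The kinases and the decarboxylase between them spread less than Idi1. Mvk, mevalonate kinase, read 1168, 1639.7 and 1159.6 in samples 1, 4 and 5, and Mvd, which makes isopentenyl diphosphate, 1289, 1433 and 1369. Pmvk, phosphomevalonate kinase, read 1109, 1165 and 1712, with sample 5 above the other 2. The range between highest and lowest sample was 1.41-fold for Mvk, 1.11-fold for Mvd and 1.54-fold for Pmvk.

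The 3 genes that commit the pathway to sterols and close the ring were all detected and all lowest in sample 1 by their brightest probe sets. Sqle, the epoxidase that is a rate-limiting step, averaged 4116 ± 768 (SD, n = 3) and read 3347, 4119.5 and 4882 in samples 1, 4 and 5. Lss, lanosterol synthase, read 2784, 4454 and 5540.2 by 1420013_s_at, 1.99-fold from lowest to highest. Its other 2 probe sets were each above the limit on at most 1 array and bear little on this. Fdft1, squalene synthase, read 8770.5, 10886 and 12473 by its brightest probe set, 1438322_x_at, and 1552, 5654 and 4543 by 1448130_at. The second spread 3.64-fold and the first 1.42-fold, with sample 1 lowest in both and a different sample highest.

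Among the 8 genes that turn lanosterol into cholesterol, some spread several-fold and others hardly at all. Msmo1, the methylsterol oxidase, read 779, 1422 and 3014 in samples 1, 4 and 5, and Sc5d, a sterol desaturase, 691, 1040.5 and 1856. Nsdhl, a sterol dehydrogenase, read 2203, 3564 and 4465. In these 3 genes sample 1 was lowest and sample 5 highest, with 3.87-fold, 2.69-fold and 2.03-fold between them. Cyp51, the lanosterol demethylase, read 2554, 4285 and 3871 by its brightest probe set and Ebp, a sterol isomerase, 3128, 4740.4 and 3871, both with sample 1 lowest and sample 4 highest. Another Cyp51 probe set, 1422533_at, read 871, 443 and 873, with sample 4 lowest, and was above the limit in sample 5 alone.

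The other 3 maturation genes were level across samples. Dhcr7, the last reductase before cholesterol, read 2198, 2320.2 and 2106 in samples 1, 4 and 5, Tm7sf2, a sterol reductase, 2194, 1917 and 1946 and Hsd17b7, a ketosteroid reductase, 1199, 1155 and 1171. Their ranges were 1.10-fold, 1.14-fold and 1.04-fold. On MOE430B the Hsd17b7 probe set 1457248_x_at read 22294, 20303 and 22982, again level. Sc5d and Msmo1 on that design read 1736, 2023 and 2543 and 1457, 1108 and 678, below its limit, the second with sample 1 highest.

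Of the 5 genes of sterol sensing and SREBP control, 4 read lowest in sample 4 by their brightest probe sets, and Insig2 read highest there. Srebf2 averaged 1630.4 ± 54.1 (SD, n = 3), with 1629.7, 1577 and 1685 in samples 1, 4 and 5, and differed 1.07-fold between its highest and lowest sample. Srebf1 read 3685, 2498 and 2650.3 in samples 1, 4 and 5 and was highest in sample 1. Scap, the escort, read 2151, 1525 and 2744, lowest in sample 4 and highest in sample 5. Of the retention genes, Insig1 was measured on MOE430B alone, where it read 11458, 4609.8 and 8999, with sample 4 well below the others at 2.49-fold from lowest to highest. Insig2 was detected by 3 probe sets, 1417981_at at 1939.7, 3981 and 2191, 1417980_a_at at 1659, 2515 and 2056 and 1417982_at at 2272, 2995 and 1268. All 3 put sample 4 highest, so that Insig1 was lowest in the sample in which Insig2 was highest.

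Sterol transport was represented by 2 genes. Abca1, the exporter of cholesterol to lipoproteins and an LXR target, read 2143, 1049 and 1813 in samples 1, 4 and 5 by its single detected probe set of 3, with sample 4 lowest. Stard4, a soluble carrier of sterols and an SREBP target, read 2209.6, 2878 and 2064 on MOE430A and 2371, 4121 and 6257 on MOE430B, where sample 1 lay below the limit. The designs put different samples lowest and highest for it.

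Fatty acid synthesis was detected at each of its 3 core steps. Fasn, fatty acid synthase, read 1937, 1437 and 3095 in samples 1, 4 and 5, lowest in sample 4 and highest in sample 5. Acly, which makes cytosolic acetyl-CoA for both pathways, read 18803, 15028 and 23853 by 1439459_x_at and 1517, 2673 and 3665 by 1451666_at, both highest in sample 5 but with different lowest samples. Acaca, the carboxylase that makes malonyl-CoA, was level at 11520.5, 12081 and 11161 on MOE430B and below the limit in every sample on MOE430A, with 490.3, 777 and 396.

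The desaturases and elongases went in different directions across samples. Scd1, the stearoyl-CoA desaturase of fat and liver, had the widest spread of the brightest probe sets on MOE430A, 1859, 8379.7 and 4471 in samples 1, 4 and 5, or 4.51-fold. Its second probe set, 1415965_at, was above the limit in sample 5 alone and read 809, 956 and 939.6. Scd2, the form of most other tissues, was detected by 3 of 3 probe sets and read 8637, 13324 and 15759 by the brightest, with sample 1 lowest in all 3. Elovl6, which elongates saturated fatty acids, read 5257, 3056 and 3549 by 1417404_at and 1799.8, 906 and 1161 by 1417403_at, so sample 1 was highest and sample 4 lowest in both.

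Elovl5, the elongase of polyunsaturated fatty acids, was also highest in sample 1, with 7948, 6329 and 6745 by 1415840_at and 59179, 31136 and 24351 by 1437211_x_at. Fads2, the first desaturase of that route, read 2441, 1566 and 2287, lowest in sample 4. Fads1, the second, read 4794, 5783 and 6324 on MOE430A and 7749, 5504 and 4721 on MOE430B. The 2 designs gave Fads1 opposite orders, with sample 1 lowest on the first and highest on the second, so no sample can be called high or low for it.

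**Figure D2:**
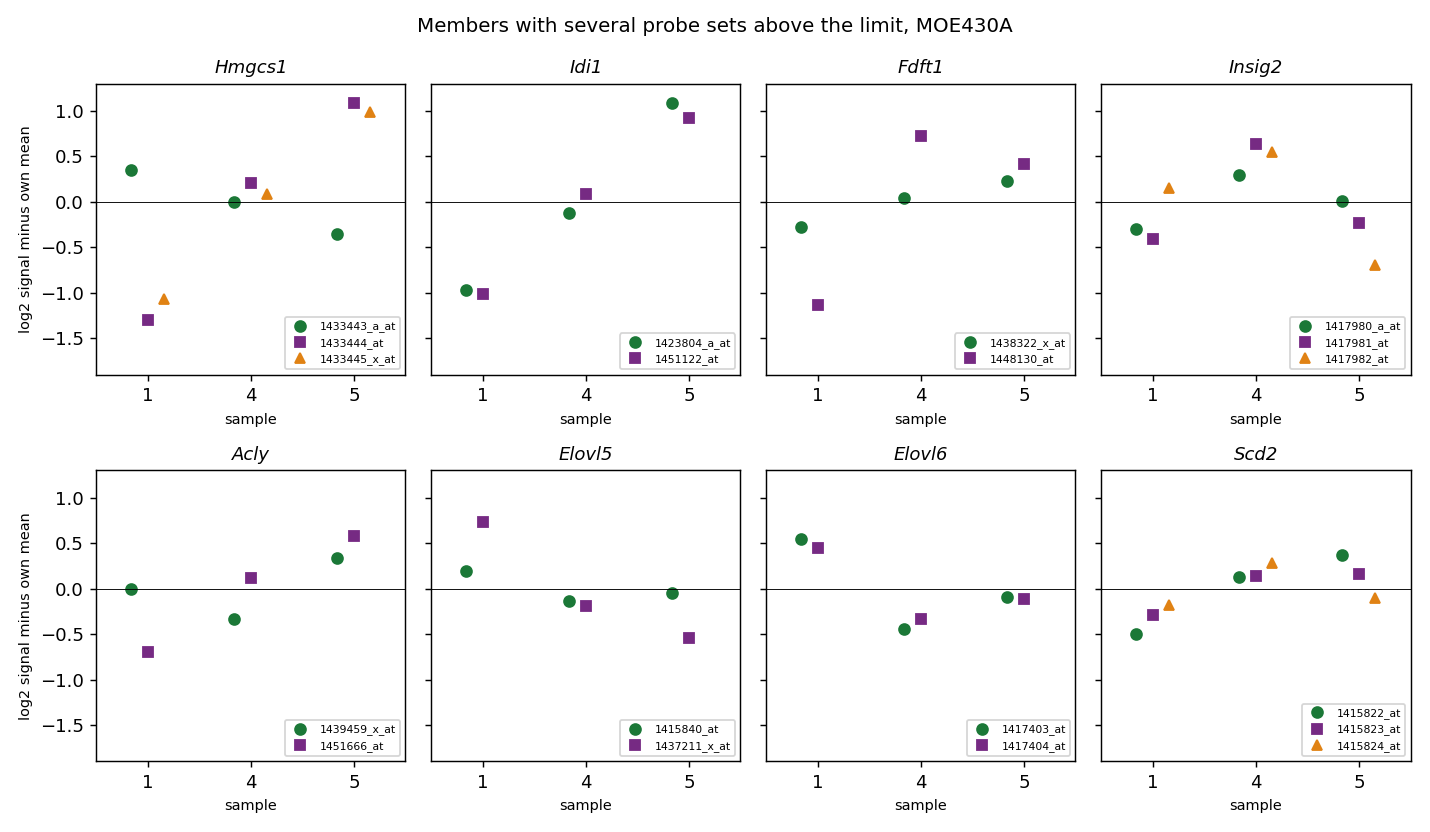
Log2 signal minus the probe set's own mean (vertical axis) in samples 1, 4 and 5 (horizontal axis) for the 8 members with several probe sets above the limit by their mean on MOE430A, 1 colour and marker per probe set. Probe sets of Idi1, Elovl6 and Scd2 share the lowest sample, and the brightest Hmgcs1 probe set runs opposite to the other 2 shown.

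Of these 8 genes with more than 1 probe set above the limit by their mean, 4 had the same lowest sample in every such probe set and 5 the same highest. Over all genes of this kind the shares were 47.9% and 47.1% of 1443. Probe sets of 1 gene often named different low samples, among the members as among all genes.

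Taken gene by gene at the brightest probe set, sterol enzymes tended to read low in sample 1. They were made a group after the values were seen. Sterol enzymes and other members alike tended to read high in sample 5. On MOE430A 23 of the 32 measured members were lower in sample 1 than the mean of the other 2, with a median deviation of -0.21 on the log2 scale, against 44.3% of all 12394 genes measured there and a median of 0.11. Keeping genes whose mean lay above the limit left 30 members, of which 21 were lower in sample 1, against 48% of all 5447 genes so kept, and 20 higher in sample 5, against 47%. Their median deviation in samples 1, 4 and 5 was -0.19, 0.02 and 0.23, and that of all kept genes was 0.03, 0.04 and -0.05. The 16 kept genes of the sterol synthesis steps had a median of -0.42 in sample 1, which is 1.33-fold lower, with 13 of 16 lower, and 0.29 in sample 5. Among the 13, Msmo1 and Sc5d were below the limit in sample 1. Both were also among the 20 higher in sample 5. With detection required on 3 of 3 arrays, 11 of 14 sterol genes were lower in sample 1, with a median of -0.38. All genes under this filter had a median of 0.048, and their share lower in sample 1 was not counted. Dhcr7 counted as lower at only -0.008. The 14 other kept members had medians of -0.01, -0.31 and 0.20 in samples 1, 4 and 5. Within the sterol genes the sample 5 median was 0.01 for the mevalonate steps, 0.395 for squalene and ring closure and 0.117 for maturation. The exceptions among the sterol genes in sample 1 were Hmgcs1 by its brightest probe set, Tm7sf2 and Hsd17b7.

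Most of the single deviations lay within the SD between designs. Lower in sample 1 by more than the SD between designs were 9 of the 30 kept members, against 19.4% of all kept genes: Idi1, Lss, Cyp51, Msmo1, Nsdhl, Sc5d, Insig2, Scd1 and Scd2. Msmo1 and Sc5d lay below the limit in sample 1 and were kept through the other 2 samples. For these genes the filter itself favoured a low reading in sample 1. Higher in sample 1 by more than that SD were 5, against 19.8%: Hmgcs1, Srebf1, Abca1, Elovl5 and Elovl6. In sample 5, 10 of 30 were higher by more than it, against 22.9%, and 2 were lower, against 25.9%. Msmo1 and Sc5d were among the 10, so for them the filter also favoured a high reading in sample 5. In sample 4, 6 were lower, against 14.4%, and 3 higher, against 18.5%. The 6 low in sample 4 were Scap, Abca1, Acly, Fasn, Elovl6 and Fads2, none of them a sterol enzyme.

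**Figure D3:**
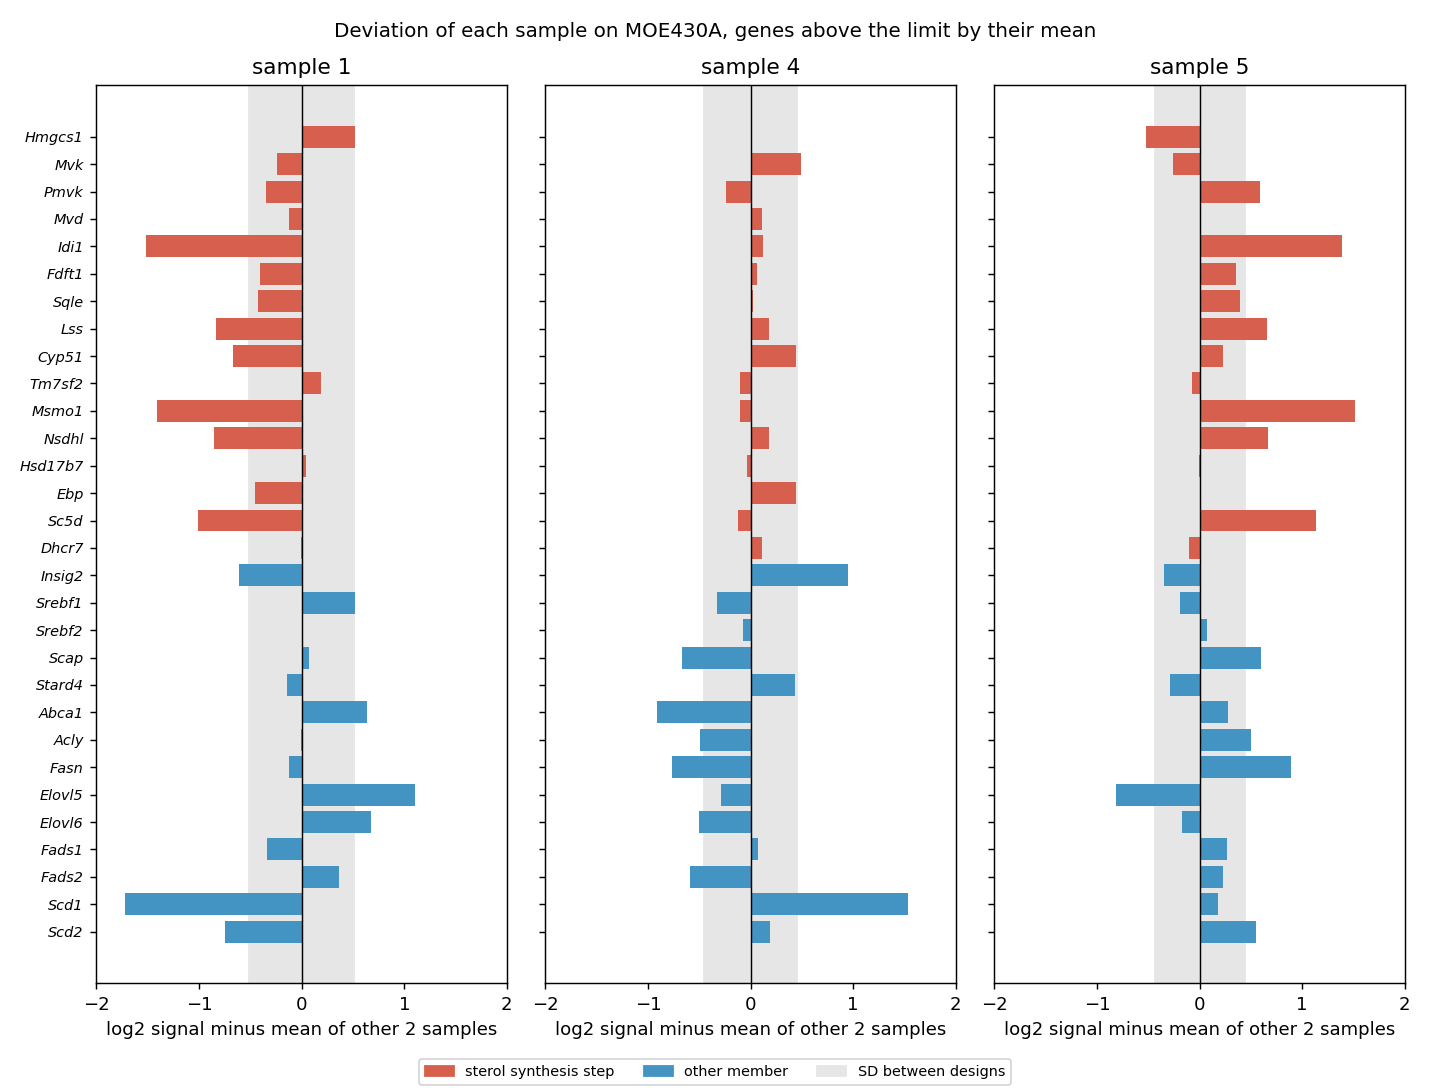
Log2 signal of samples 1, 4 and 5 minus the mean of the other 2 samples (horizontal axes) for the 30 members above the limit by their mean on MOE430A, sterol synthesis steps in red and other members in blue. Grey bands reach 1 SD to either side of 0, for the SD of the same measure between the designs, and 9 members lie below the band in sample 1.

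The order of the 3 samples rests on the scaling of each array, as the deviations do. Sample 1 was lowest for 15 of the 30 kept members, against 33.8% of all kept genes, sample 4 for 10, against 25.3%, and sample 5 for 5, against 40.9%. Msmo1 and Sc5d, below the limit in sample 1, were among the 15. Sample 5 was highest for 14, against 33.9%, Msmo1 and Sc5d again among them. The order 1 < 4 < 5 was found for 10 members, against 20.5%, and the reverse order 5 < 4 < 1 for 2, Hmgcs1 and Elovl5, against 24%. The 10 included Msmo1 and Sc5d, and also Fads1, whose MOE430B probe set gave the opposite order. Other probe sets of Hmgcs1 and Elovl5 above the limit by their mean did not repeat the reverse order. The amount of spread was ordinary, since 9 of 30 members differed over 2-fold between highest and lowest sample, against 29.3%. The median SD of log2 signal was 0.35 in the members and 0.37 in all kept genes.

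**Figure D4:**
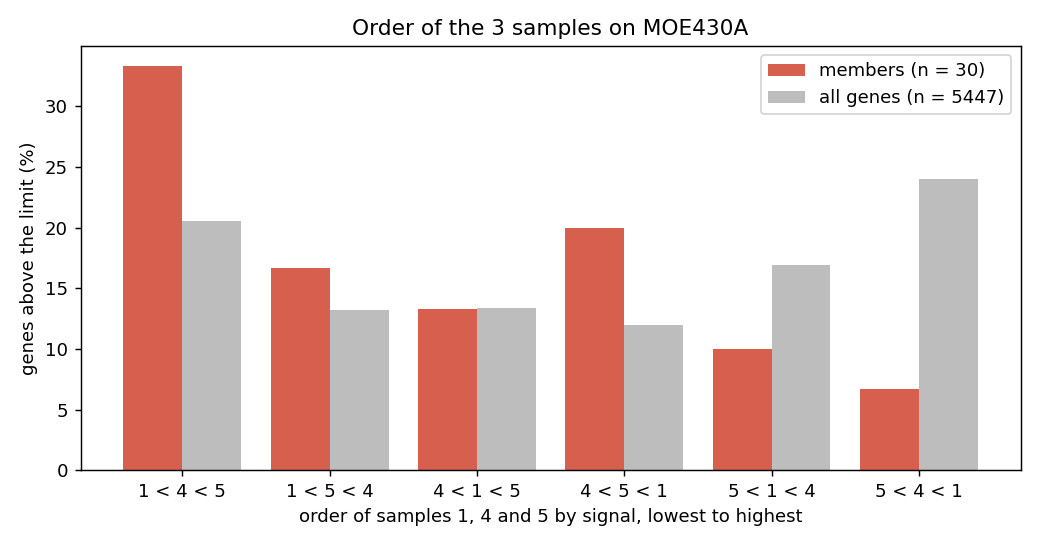
Share of genes above the limit by their mean on MOE430A (vertical axis, percent) in each of the 6 possible orders of samples 1, 4 and 5 from lowest to highest signal, for the 30 members (red) and all 5447 genes (grey). By brightest probe sets the order 1 < 4 < 5 holds 10 members and the order 5 < 4 < 1 holds 2. Msmo1 and Sc5d, below the limit in sample 1, are among the 10.

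On MOE430B 5 members were above the limit by their mean, Hsd17b7, Insig1, Stard4, Acaca and Fads1, and 2 of them were lower in sample 1, against 56.2% of all 2101 genes so kept. That is too few to compare with MOE430A. Several other measures moved with the samples, and their part in these results was not tested. The 3' to 5' ratios given above were highest in sample 1. All 24 cell cycle genes kept on MOE430A were lower in sample 1, against 48% of all kept genes, with a median deviation of -1.99. Of these, 13 were detected on 3 of 3 arrays. The rest were below the limit in sample 1, so the filter itself favoured a low reading there. The mitotic kinase gene Cdk1 read 1809, 10433 and 4459 in samples 1, 4 and 5. Fibroblast markers had a median deviation of 0.76, 1.00 and -1.70. The 11 adipocyte markers, none of them detected, moved in different directions across the samples. Among them Adipoq read 65.0, 66.8 and 34.9, below the limit throughout, and Fabp4 266, 250.5 and 2991, above it in sample 5. MOE430A and MOE430B arrays of a sample share their RNA, so neither design adds samples to the 3.

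Other genes of the pathway, listed apart from the members, were detected less uniformly. Further sterol synthesis genes had 4 of 7 detected on MOE430A, and SREBP processing and turnover genes 3 of 5, among them the site-1 protease gene Mbtps1 at 3746, 3631 and 3464 in samples 1, 4 and 5. The site-2 protease gene Mbtps2 read 9039, 8501 and 17985 on MOE430B, highest in sample 5. Cholesterol uptake and trafficking genes had 11 of 13 detected. The lysosomal lipase gene Lipa, which frees cholesterol from its esters, read 6559.6, 5909.8 and 1482 and was over 4-fold lower in sample 5 than the mean of the other 2.

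LXR and efflux genes had 3 of 7 detected, and the receptor gene Nr1h3 read 389, 453 and 326, below the limit in every sample. Other fatty acid synthesis genes had 14 of 28 detected. Acss2, which makes acetyl-CoA from acetate, read 938, 894 and 672 and Acacb, the mitochondrial carboxylase, 42.0, 68.7 and 31.7, neither above the limit in any sample. Acsl4, an acyl-CoA synthetase gene that prefers arachidonate, read 381, 589 and 3465 and was above the limit in sample 5 alone. In sample 1 on MOE430A these lists had median deviations of 0.18 for further sterol genes, 0.03 for SREBP processing, 0.09 for uptake and trafficking, 1.25 for LXR and efflux, and -0.01 for other fatty acid genes, over 4, 3, 11, 3 and 16 kept genes. The 4 further sterol genes were mixed, with Acat1 at 1.40, Fdx1 at 0.22, Dhdds at 0.135 and Erg28 at -0.46. The 3 kept LXR and efflux genes were Rxra at 1.25, Rxrb at 1.49 and Lpcat3 at -0.33. Neither Nr1h3 nor the transporter genes Abcg1 and Abcg4 were kept. These genes are named here after their values were seen. On MOE430B the SREBP processing genes had a median of -0.45 in sample 1, with 3 of 3 kept genes lower, against 56.2% of all kept genes there. Mbtps2, among these 3, was lowest in sample 4.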

How the data were processed

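RNA of 3 samples of the 10T1/2 line was measured on MOE430A and MOE430B arrays. The values the authors deposited are MAS5 signals, 1 intensity for each probe set of an array (MAS5 is named in the submitters' processing notes, without version or settings). These intensities are linear and scaled per array, with a mean of about 1501 on MOE430A and 1500.2 on MOE430B after trimming 2% at each end, so the designs were kept apart. The number of arrays limits the precision. The run-setting files were not used, and 0 columns holding values of a sample were set aside.

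Genes were named from the platform annotation, with symbols updated to RefSeq (GRCm38.p6): on MOE430A 20393 probe sets had 1 gene, 691 several and 1606 none, and on MOE430B 14674, 245 and 7656. The background list held 340 genes, of which 285 gave 375 probe sets on MOE430A and 39 gave 54 on MOE430B. By the detection rule 9 and 1 of these probe sets were themselves detected. Signals were set to at least 1 before log2. A gene was represented by its probe set of highest mean log2 signal, and kept when that mean exceeded the mean log2 limit. Python 3.11.15, pandas 2.3.3 and matplotlib 3.10.9 were used, and the functions were tested on simulated data. No test of significance was run, since there is 1 group. The rule names all members, the first 2 genes of every other list as written, and pathway genes that deviate over 4-fold in 1 sample and whose mean lies above the limit. Members and lists were chosen with earlier results of these data known, and the union of sterol synthesis steps after the values were seen. Alternatives covered the limit, the filter, the scaling, the probe set used and leaving out each sample.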

Additional observations from a re-analysis of the deposited data

How the results depend on the processing

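The count of 30 detected member genes depended most on how probe sets were combined. A majority rule over each gene's probe sets gave 14, where all genes gave 2647 and not 5582. It was 22 at the 99th percentile limit, where all genes gave 3685. Under the other 4 alternatives it was 28 to 33, where all genes gave 4997 to 7122. With a sample left out it was 30 to 33, where all genes gave 5892 to 6507. The 33 came without sample 1, where all genes gave 6507. On MOE430A the members' median deviation of sample 1 ranged from -0.29 to -0.13 over 12 alternatives and from -0.33 to -0.15 with a sample left out. That of sample 5 ranged from 0.18 to 0.23, and from 0.13 to 0.33 with a sample left out. That of sample 4 was near 0 and changed sign to -0.02 when arrays were centred on the genes above the limit, and to -0.13 without sample 1. The members lowest in sample 1 numbered 12 to 16 of 24 to 32 kept. With a sample left out, lowest means only lower than the other remaining sample, which is easier to meet. By that measure 19 of 30 were lowest without sample 4 and 17 of 29 without sample 5. These counts cannot be set against the 12 to 16, and the matching shares of all genes were not counted. The median SD was 0.32 to 0.40, and 0.23 to 0.35 with a sample left out. The sterol synthesis genes, a group chosen after seeing the data, had a median of -0.56 to -0.38 in sample 1 over 13 alternatives and -0.53 to -0.31 with a sample left out. The share of them lower was smallest at 12 of 16, under quantile normalisation and under centring. It was largest at 11 of 12, with the mean of all probe sets of a gene. At the 99th percentile limit it was 9 of 11, and with probe sets counted singly 17 of 20. With a sample left out it was 11 of 16 or 12 of 15. No paired analysis was possible because the samples form 1 group and no test between groups was made. Signal over background limits MOE430B most, where 9.67% of probe sets lay above the limit in sample 1.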
